A study of Mus musculus with 10 samples.

Results

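Natural regulatory T cells (Treg) were compared with conventional CD4+ T cells (Tconv), both activated and given an empty retrovirus. The samples were chosen by title, the arrays called Foxp3(+)epigenetics(+) T cells against those called Foxp3(-)epigenetics(-) T cells. They are 4 of the 10 arrays of the series and 2 of its 5 groups, with n = 2 arrays per group. All 45101 probe sets of the mouse array were available for the comparison. They gave 18193 genes with a single symbol, of which 11318 were tested.

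Both groups came from DEREG mice, a line in which a transgene with the Foxp3 promoter drives GFP fused to the diphtheria toxin receptor. The strain field reads DEREG_Balb/c for every array of the series, and the tissue is spleen. Treg were sorted as GFP+CD4+ cells and Tconv as GFP-CD4+ cells, so the sort itself rested on the activity of a Foxp3 promoter. Both were stimulated with antibodies to CD3 and CD28, transduced with the empty pGCSamIN vector, which carries an NGFR marker, and sorted again as NGFR+ cells. Every profile is therefore one of activated and virus-bearing cells, with no resting cells for comparison. The remaining groups were Tconv given a Foxp3 vector, and GFP+ cells given either vector whose descriptions read D_S, taken here as DEREG/Scurfy, a strain in which Foxp3 is mutated. Whether the arrays of a group stand for separate mice or cultures is not in the labels, so the error behind each p-value is array-to-array spread, which may be technical.

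Treg restrain other immune cells and prevent autoimmunity, and most of those in the spleen acquire their identity in the thymus. Foxp3 is the transcription factor that defines them. It works together with other factors, among them Helios (Ikzf2) and Eos (Ikzf4), and with a pattern of DNA demethylation at Treg genes that is laid down independently of Foxp3 itself. Activation makes conventional CD4+ T cells switch on some of the surface molecules that resting Treg carry, such as CD25 (Il2ra), CTLA-4 and GITR (Tnfrsf18), which is relevant to a comparison of activated cells.

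Values are given as deposited intensities per probe set on a linear scale, and differences as Treg minus Tconv on the scale of log2(intensity + 16), which understates changes of dim genes. Median intensities over all probe sets were 25 and 36.5 on the Treg arrays and 21.5 and 18.8 on the Tconv arrays. Replicates correlated at r = 0.959 for Treg and 0.965 for Tconv, across genes. The Treg arrays differed from each other by more than 1 log2 unit in 1237 of the genes tested (10.9%), against 691 (6.11%) for the Tconv arrays.

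The Treg markers followed the labels, which is not an independent check. The sort used the activity of a Foxp3 promoter, and the markers were chosen with earlier results of these data known. The summed intensity of the Treg markers Foxp3, Ikzf2, Nt5e and Cpe was 7407 and 8677 on the Treg arrays and 74.8 and 49.1 on the Tconv arrays. The 6 CD4 T cell markers (Cd4, Cd3d, Cd3e, Cd3g, Cd2 and Cd28) were above the array median on all arrays, with sums of 19960 and 21610 in Treg and 17440 and 18100 in Tconv. Genes of other cells were low by comparison. The 5 defining myeloid markers measured summed to 41.5 and 18.0 in Treg and 82.5 and 38.8 in Tconv, while of the 10 genes tested in a longer myeloid list 8 had positive differences, with none called and a median of 0.88 (0.34 without the second Treg array). Over the 4 arrays the 4 mast cell and basophil markers summed to between 5.09 and 21.8. B cell genes separated the Treg arrays from each other. The 5 defining B cell markers measured, Cd79a, Cd79b, Ms4a1, Pax5 and Ebf1, summed to 80.4 on the first Treg array and 574 on the second, against 183 and 109 in Tconv. Over 9 MHC class II genes the sum was 774 on the first Treg array and 5739 on the second, against 1532 and 1136 in Tconv. In sorted bulk samples, fewer cells of a type and less RNA per cell cannot be told apart.

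At an adjusted p under 0.05, 123 of the 11318 genes differed (1.09%), 100 higher in Treg (0.884%) and 23 lower (0.203%). The calls are few against the number of genes with an unadjusted p under 0.05, which was 1744 (15.4%). The groups did not overlap for any of the 123 called genes, nor for 51.5% of all genes tested. Genes called higher exceeded Tconv by 1.46 to 6.75 log2 units, with a median of 2.49. The 23 genes called lower were below Tconv by 1.49 to 5.74, with a median of 2.66. Many called genes were near background in one group. Of the 100 higher genes, 38 lay at or below the array median on both Tconv arrays (7.61% of all genes did), and of the 23 lower genes, 12 did so on both Treg arrays (8.01% of all genes did).

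**Figure D1:**
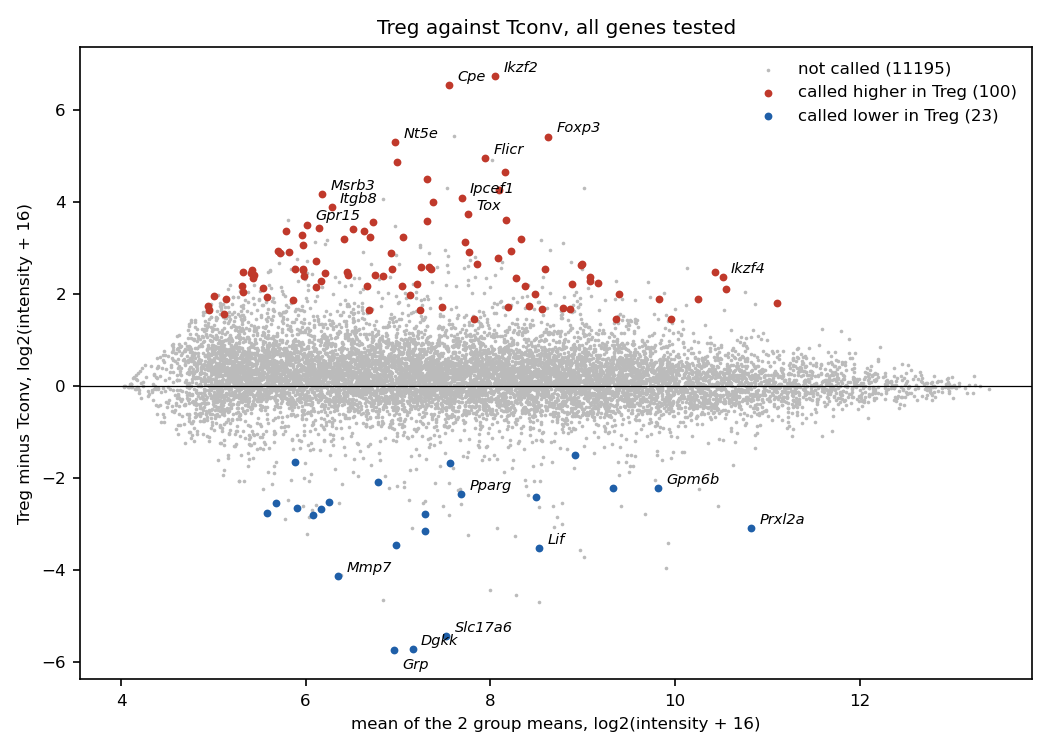
Difference between Treg and Tconv (log2) against the mean log2 intensity of the 4 arrays, 1 point per gene tested. Coloured points are the 100 genes called higher and the 23 called lower in Treg, and the labelled genes with the largest differences, such as Ikzf2, Cpe and Foxp3 at the top and Grp and Dgkk at the bottom, stand well apart from the other genes.

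The split between directions depended on scaling. The median difference over all genes was 0.19 without further normalization, -0.05 after quantile normalization and -0.11 after scaling to a common 75th percentile. The corresponding splits were 100 higher and 23 lower, 103 and 75, and 119 and 80. Quantile normalization called 84 of the 100 higher genes and all 23 lower genes again. The number of calls also rested on single arrays, including arrays outside the compared groups, whose effect is not listed gene by gene below. It was 17 without the second Treg array, 17 without the second Tconv array, 45 without the first Tconv array and 97 without the first Treg array. Ikzf2, Cpe, Foxp3, Nt5e, Flicr, Msrb3, Ipcef1, Gpr15, Qser1, Mgat5 and Dgkk were the 11 genes called whichever of the 10 arrays was left out.

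Transcription factors of the Treg lineage were among the genes with the largest differences. Ikzf2, which encodes Helios, read 2261 and 3341 on the Treg arrays and 10.2 and 9.03 on the Tconv arrays, a difference of 6.75 (SE 0.296, adjusted p = 2.7e-05). Foxp3 read 2130 and 3128 in Treg and 53.9 and 35.9 in Tconv, a difference of 5.43 (SE 0.302, adjusted p = 7.6e-05). Both genes were high on both Treg arrays. On both Tconv arrays Ikzf2 lay below the array median and Foxp3 somewhat above it. Ikzf4, which encodes Eos, was strong in both cell types. Its intensities of 2742 and 4028 in Treg and 721 and 540 in Tconv differed by 2.38 (SE 0.291, adjusted p = 0.0084). Rora, a nuclear receptor known from Th17 cells and tissue Treg, rose from 17.7 and 35.3 in Tconv to 500.5 and 836 in Treg, a difference of 4.00. Tox, an HMG-box factor of T cell development and exhaustion, read 838 and 722 in Treg against 41.2 and 45.0 in Tconv, a difference of 3.75. Tox is not in the list of Treg transcription factors used below. With the Foxp3 vector it read 270 and 466 in Tconv and 149 and 191 in scurfy GFP+ cells. In this group the calls of Ikzf4, Rora and Tox were lost without the second Treg array, with adjusted p of at most 0.088, 0.095 and 0.083 over the left-out arrays. Ikzf4 and Rora also lost theirs without the second Tconv array, Rora without the first Tconv array, and Tox without the first Treg array.

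Of the 33 genes listed as Treg transcription factors, 31 were tested and 4 were called higher (Ikzf2, Foxp3, Rora and Ikzf4) and 0 lower. Over all genes tested, 0.884% were called higher and 0.203% lower. Differences were positive for 23 of the 31, against 7334 of all 11318 genes (64.8%), and their median was 0.32 against 0.19 for all genes. That median was -0.03 after scaling to a common 75th percentile. Uncalled members included factors with negative differences. Gata3, the Th2 factor, differed by -1.50 (adjusted p = 0.18) and Tbx21, the Th1 factor, by -1.45 (adjusted p = 0.16). Satb1, a chromatin organiser that Foxp3 represses, differed by -1.09 (adjusted p = 0.22).

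**Figure D2:**
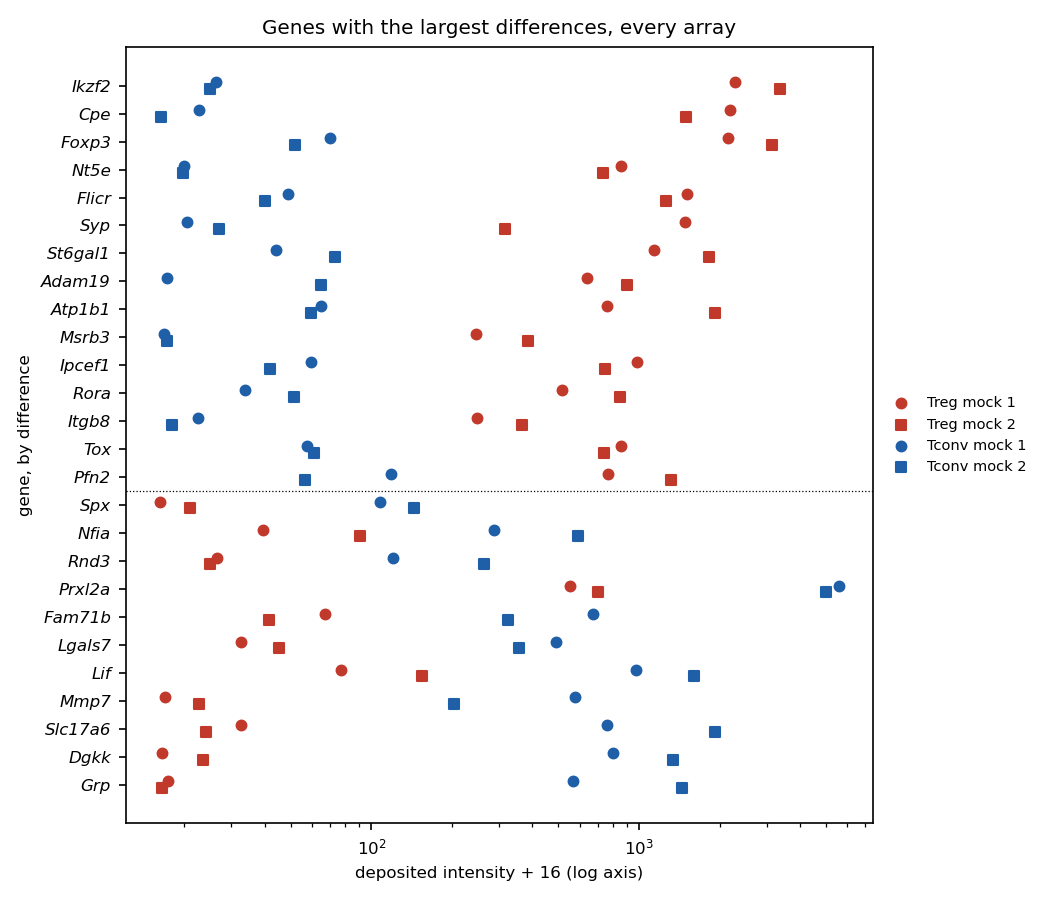
Intensity + 16 on a log axis for the genes with the largest differences, 1 point per array for Treg and Tconv. Points of the 2 groups do not overlap for any gene shown, and the Tconv points of Ikzf2, Cpe and Nt5e lie near the floor that the added 16 sets.

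Surface and secreted proteins formed the next group. Nt5e encodes CD73, the enzyme that turns AMP into adenosine on the surface of Treg. It read 838 and 720 in Treg against 3.92 and 3.77 in Tconv, a difference of 5.32 (SE 0.314, adjusted p = 8.3e-05). Cpe, carboxypeptidase E of the prohormone pathway, read 2178 and 1488 in Treg against 6.75 and 0.391 in Tconv, a difference of 6.56 (SE 0.312, adjusted p = 2.9e-05). Both genes were at background on the Tconv arrays and high on both Treg arrays. The other Nt5e probe sets differed by 4.59, which was called, and by -0.29, which was not.

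Integrin, lectin and co-receptor genes followed at lower levels. Itgb8, whose integrin releases active TGF-beta from its latent form, read 232 and 349 in Treg and 6.51 and 1.93 in Tconv, a difference of 3.91 (SE 0.454, adjusted p = 0.0073). Klrg1, a receptor for cadherins found on terminally differentiated Treg, differed by 3.59 (adjusted p = 0.022), with 514 and 563 in Treg and 76.4 and 6.97 in Tconv. Nrp1, a semaphorin receptor that marks thymus-derived Treg in mice, differed by 2.60 (adjusted p = 0.025). Its values were 267 and 484 in Treg and 37.6 and 55.7 in Tconv. Without the second Treg or the second Tconv array, Itgb8, Klrg1 and Nrp1 were not called, with adjusted p of at most 0.075, 0.16 and 0.18. Klrg1 was also not called without the first Treg array, nor Nrp1 without the first Tconv array.

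Several of the best known Treg surface molecules were shared by the activated groups. Il2ra, the high-affinity IL-2 receptor chain, read 8127 and 8558 in Treg and 7507 and 7422 in Tconv, a difference of 0.16 (95% interval -0.384 to 0.703, adjusted p = 0.79). Tnfrsf18, which encodes GITR, differed by 0.22 (95% interval -0.522 to 0.962), and its groups overlapped. Ctla4, the inhibitory receptor that competes with CD28, read 3946 and 4865 in Treg and 3336 and 2031 in Tconv. Its difference of 0.75 (95% interval -0.145 to 1.64, adjusted p = 0.41) was not called. All of these genes were bright on all 4 arrays. Il7r, the IL-7 receptor chain that resting Treg carry little of, differed by 0.67 (95% interval -0.301 to 1.64).

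Itgae (CD103) and Gpr83, both Treg-enriched surface receptors, were bright in Treg and on the first Tconv array but not on the second. Itgae read 2795 and 2651 in Treg and 2148 and 80.6 in Tconv, and its difference of 2.58 had an adjusted p of 0.35. Gpr83 read 1296 and 1596 in Treg and 1046 and 132 in Tconv, with a difference of 1.87 and an adjusted p of 0.40. These values were chosen after they were seen. Of the 34 listed surface and effector molecules, 30 were tested and 5 rose (Nt5e, Itgb8, Klrg1, Nrp1 and Swap70, a regulator of Rac and the actin cytoskeleton), while 0 fell. Among all genes 0.884% were called higher. Swap70 was not called without any 1 of the 4 arrays compared (adjusted p at most 0.32). Positive differences were found for 21 of the 30 (64.8% of all genes were positive), with a median of 0.61, or 0.36 without the second Tconv array.

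The genes next to Foxp3 on the X chromosome showed a local pattern. In RefSeq order (GRCm38.p6), the tested genes around it run Dgkk, Clcn5, Usp27x, 2010204K13Rik, Ppp1r3f, Flicr, Foxp3, Ccdc22, Syp and Plp2. Flicr, a noncoding RNA transcribed just upstream of Foxp3, read 1500 and 1243 in Treg and 32.8 and 24 in Tconv, a difference of 4.97 (SE 0.295, adjusted p = 8.3e-05). Syp, which encodes the synaptic vesicle protein synaptophysin, read 1474 and 300 in Treg and 4.45 and 11.1 in Tconv, a difference of 4.87 (SE 0.681, adjusted p = 0.014). On both Tconv arrays Syp lay below the array median and Flicr somewhat above it. Ccdc22, a component of the COMMD complex of endosomal sorting, was expressed in both cell types, with 3012 and 3519 in Treg and 671 and 482 in Tconv. It differed by 2.48 (SE 0.269, adjusted p = 0.0049). Its other probe set, fitted on its own in limma, differed by 0.66 and was not called (adjusted p = 0.37). Ppp1r3f, a regulatory subunit of protein phosphatase 1, differed by 2.24 (SE 0.337, adjusted p = 0.019), and Usp27x, a deubiquitinase gene farther upstream, by 2.59 (SE 0.329, adjusted p = 0.0088). Between these last genes, 2010204K13Rik differed by 1.11 and was not called (adjusted p = 0.11).

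The genes beyond this stretch were not called higher. Plp2, next to Syp, read 3692 and 3558 in Treg and 3110 and 3016 in Tconv, a difference of 0.24 (SE 0.239, adjusted p = 0.67). Clcn5, a chloride channel gene beyond Usp27x, differed by 0.33 (adjusted p = 0.78). Its neighbour Dgkk, a diacylglycerol kinase gene, was among the largest decreases, with 0.548 and 7.45 in Treg and 785 and 1328 in Tconv. It differed by -5.72 (SE 0.505, adjusted p = 0.0019). Calls in this stretch were lost without the second Tconv array for Ccdc22, Syp and Ppp1r3f (adjusted p at most 0.069, 0.088 and 0.18). Ccdc22 and Ppp1r3f also lost theirs without the second Treg array, and Syp and Ppp1r3f without the first Tconv array. Usp27x was not called without the second Treg array or without either Tconv array. Across the X chromosome 14 of 334 tested genes were called (4.19%), and 7 of 312 (2.24%) once the 22 tested genes around Foxp3 were set aside, against 109 of 10962 genes elsewhere (0.994%).

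**Figure D3:**
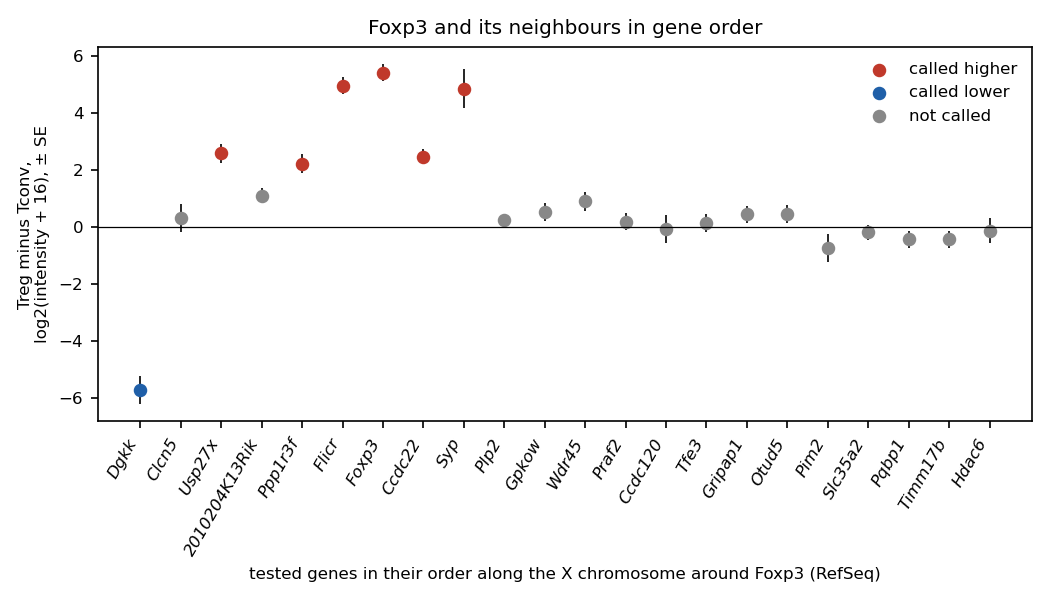
Difference between Treg and Tconv (log2, with SE) for the tested genes around Foxp3 in chromosomal order, by gene rank and not by distance. Usp27x, Ppp1r3f, Flicr, Foxp3, Ccdc22 and Syp are called higher, Dgkk is called lower, and the genes from Plp2 onwards lie within about 1 log2 unit of 0.

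The promoters of Foxp3 and of Ppp1r3f, Flicr, Ccdc22 and Syp are shown because these genes moved together over a short stretch of the chromosome. Each sequence is the 250 bases before the RefSeq start site in GRCm38.p6, read 5′ to 3′ on the strand of the gene. Capitals mark matches, on either strand, to the letters of the NFAT core, GGAAA, and of the TATA box, TATAAA, or to their reverse complements. Ppp1r3f (chrX:7574282-7574531) and Ccdc22 (chrX:7605421-7605670) lie on the minus strand. Flicr (chrX:7573350-7573599), Foxp3 (chrX:7579426-7579675, the lower of its 2 listed starts) and Syp (chrX:7638330-7638579) lie on the plus strand.
Ppp1r3f: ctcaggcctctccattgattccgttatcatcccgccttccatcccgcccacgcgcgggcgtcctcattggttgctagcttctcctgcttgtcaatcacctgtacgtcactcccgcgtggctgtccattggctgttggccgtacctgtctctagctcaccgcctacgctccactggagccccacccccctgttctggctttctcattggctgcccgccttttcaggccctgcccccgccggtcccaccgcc
Flicr: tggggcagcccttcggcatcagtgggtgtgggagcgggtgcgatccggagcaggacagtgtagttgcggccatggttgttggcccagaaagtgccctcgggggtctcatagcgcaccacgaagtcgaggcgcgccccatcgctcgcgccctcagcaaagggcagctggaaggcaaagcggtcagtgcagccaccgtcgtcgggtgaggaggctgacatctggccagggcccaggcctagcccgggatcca
Foxp3: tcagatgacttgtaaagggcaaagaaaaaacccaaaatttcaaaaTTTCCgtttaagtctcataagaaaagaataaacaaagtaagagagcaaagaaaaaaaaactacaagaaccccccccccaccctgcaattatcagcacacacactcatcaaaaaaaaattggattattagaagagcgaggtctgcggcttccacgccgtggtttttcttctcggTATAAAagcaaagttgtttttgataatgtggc
Ccdc22: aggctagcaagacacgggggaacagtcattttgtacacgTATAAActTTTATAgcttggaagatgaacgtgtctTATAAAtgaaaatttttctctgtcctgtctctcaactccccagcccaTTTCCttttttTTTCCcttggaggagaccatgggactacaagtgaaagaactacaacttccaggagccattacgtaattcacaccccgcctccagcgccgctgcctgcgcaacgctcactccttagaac
Syp: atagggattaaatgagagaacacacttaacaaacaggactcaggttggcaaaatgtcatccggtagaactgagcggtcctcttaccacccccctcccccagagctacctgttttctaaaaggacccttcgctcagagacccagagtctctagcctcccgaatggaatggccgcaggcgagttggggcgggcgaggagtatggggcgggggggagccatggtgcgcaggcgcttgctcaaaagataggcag
In Foxp3 the NFAT core begins 205 bases and the TATA box 32 bases before the start. Ccdc22 holds NFAT cores at 129 and 118 and TATA matches at 211, 203 and 176 bases before its start, and the windows of Ppp1r3f, Flicr and Syp hold neither motif. GC content was 37.6% in the Foxp3 window, 46.4% in that of Ccdc22, 56.4% in Syp, 63.2% in Ppp1r3f and 66.8% in Flicr. Flicr starts on the opposite strand downstream of the Ppp1r3f start, and whether signal of one gene reaches the probe set of the other was not tested.

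The same letters were counted in all genes tested with a RefSeq promoter, 11760 windows of 9219 genes. Of the called genes, 83 higher ones gave 112 windows and 21 lower ones gave 36. The TATA box was present in 11.6% of the windows of higher genes, 8.33% of those of lower genes and 6.45% of all windows. Forkhead letters (TGTTTAC or TGTTTGC, either strand) were present in 9 of the 112 windows of higher genes (8.04%), 0 of the 36 of lower genes and 5.23% of all windows. The NFAT core, a short and common sequence, was present in 49.1%, 55.6% and 53.8%. Other motifs were counted as well. ETS letters (CCGGAAG) were present in 7.14%, 2.78% and 13.7%, and TCF letters (CTTTGAA) in 6.25%, 2.78% and 3.21%. The TATA box was not among the motifs first planned. These shares describe letters and not binding, and their differences were not tested.

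Of the receptors that guide T cells into tissue, Gpr15, Cxcr6 and Cxcr4 rose in Treg. Gpr15, a chemoattractant receptor for homing to the large intestine, read 127 and 319 in Treg and 0.652 and 5.90 in Tconv, a difference of 3.52 (SE 0.396, adjusted p = 0.0062). Cxcr6, the receptor for CXCL16, differed by 2.39 (SE 0.397, adjusted p = 0.030) and Cxcr4, the receptor for CXCL12, by 1.90 (SE 0.357, adjusted p = 0.047). Cxcr4 was already substantial in Tconv, with 662 and 572, and read 1676 and 3260 in Treg. Of the 27 listed chemokine and chemoattractant receptors, 21 were tested, 3 rose and 0 fell (0.884% of all genes were called higher). Positive differences were found for 16 of the 21, against 64.8% of all genes, with a median of 0.90. Cxcr3, the receptor of Th1 cells, differed by -1.73 (adjusted p = 0.17), and S1pr1, which lets T cells leave lymphoid tissue, by 3.17 (adjusted p = 0.11). S1pr1 read 446 and 2733 in Treg, so the arrays of the group differed severalfold. Gpr15 kept its call whichever array was left out, whereas Cxcr6 and Cxcr4 were not called without the second Treg array or without either Tconv array, nor Cxcr6 without the first Treg array (adjusted p at most 0.18 and 0.29). After quantile normalization the adjusted p of Cxcr6 was 0.063.

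Adhesion and matrix genes moved in part with these receptors. Cd44, the hyaluronan receptor of activated and memory T cells, read 1884 and 1588 in Treg and 648 and 319 in Tconv, a difference of 1.89 (adjusted p = 0.042). Of 24 adhesion molecules and integrins tested, Itgb8 and Cd44 rose (0.884% of all genes were called higher) and 0 fell. Positive differences were found for 19 (64.8% of all genes), with a median of 0.62. Itga4, the integrin subunit for gut and inflamed-tissue homing, read 117 and 368 in Treg and 10.7 and 7.24 in Tconv but had an adjusted p of 0.071. Metalloproteinases were split. Adam19, Adamts6 and Adam12 rose by 4.50, 2.54 and 2.46, while Mmp7 (matrilysin) fell from 558 and 187 in Tconv to 0.995 and 6.68 in Treg, a difference of -4.12 (SE 0.513, adjusted p = 0.0084). Of the 16 tested members of that list 3 were called higher and 1 lower, against 0.884% and 0.203% of all genes. Differences were positive for 12, against 64.8% of all genes, with a median of 0.54 against 0.19. Without the second Treg array the median of the list was 0.23. Mmp7 lost its call without the second Treg array (adjusted p = 0.075). So did Cd44, Adam19, Adamts6 and Adam12, with adjusted p of at most 0.27, 0.13, 0.11 and 0.27 over the arrays left out. Cd44 had an adjusted p of 0.057 after quantile normalization.

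Among the other large increases were genes of enzymes and scaffold proteins. Msrb3, a methionine sulfoxide reductase, read 230 and 370.5 in Treg and 0.859 and 1.29 in Tconv, a difference of 4.17 (SE 0.416, adjusted p = 0.0036). Ipcef1, a scaffold for ARF exchange factors, read 966 and 731 in Treg and 43.7 and 25.7 in Tconv, a difference of 4.10 (SE 0.423, adjusted p = 0.0040). Mgat5, the glycosyltransferase that builds branched N-glycans and restrains T cell receptor clustering, read 614 and 555 in Treg and 72.9 and 54.1 in Tconv, a difference of 2.93 (SE 0.259, adjusted p = 0.0019). For Qser1, the intensities of 163 and 168 in Treg and 5.56 and 5.88 in Tconv were the tightest of these genes, and the difference was 3.06 (SE 0.288, adjusted p = 0.0025). QSER1 is known as a protector of DNA methylation valleys from de novo methylation. All 4 genes kept their calls whichever array was left out.

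St6gal1, a sialyltransferase, read 1125 and 1810 in Treg and 27.9 and 57.3 in Tconv, a difference of 4.67 (SE 0.673, adjusted p = 0.015). Atp1b1, a subunit of the sodium pump, differed by 4.28 (adjusted p = 0.029) and S100a4, a calcium-binding protein of motile and memory T cells, by 3.21 (adjusted p = 0.015). Gad1, which makes GABA, rose by 3.44 and Prickle1, a planar polarity gene, by 3.24. The kinase gene Lats2 was higher by 3.14 and the transcription factor gene Tead1 by 3.37. Hsd11b1, the enzyme that regenerates active glucocorticoid, rose by 3.42 (adjusted p = 0.033), with 229 and 347 in Treg and 26.4 and 2.34 in Tconv. Without the second Treg array the calls of St6gal1, Atp1b1, S100a4, Gad1, Prickle1, Lats2, Tead1 and Hsd11b1 were all lost, and over all left-out arrays their adjusted p reached at most 0.25.

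The genes lower in Treg formed a shorter and more mixed list. Grp, which encodes gastrin-releasing peptide, was at background in Treg, with 1.35 and 0.530 against 551 and 1435 in Tconv. Its difference was -5.74 (SE 0.682, adjusted p = 0.0082). Slc17a6, a vesicular glutamate transporter, read 16.5 and 8.18 in Treg and 746 and 1905 in Tconv, a difference of -5.43 (SE 0.805, adjusted p = 0.017). Lif, a cytokine of the IL-6 family that T cells secrete after activation, read 60.7 and 139 in Treg and 957 and 1585 in Tconv, a difference of -3.52 (SE 0.523, adjusted p = 0.017). In each of these genes both Tconv arrays were bright and both Treg arrays dim. The brightest gene of this direction was Prxl2a, a peroxiredoxin-like redox protein, with 538 and 684 in Treg and 5587 and 4999 in Tconv and a difference of -3.09 (SE 0.467, adjusted p = 0.019). Of its other probe sets 1 differed by -1.97 and was called, and 1 differed by 0.42 and was not.

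Pparg, a nuclear receptor of lipid metabolism that Th2 cells and fat-tissue Treg express, fell from 320 and 623 in Tconv to 55.8 and 99.7 in Treg, a difference of -2.35 (SE 0.358, adjusted p = 0.020). Also lower were Lgals7 (galectin-7) by -3.45, the transcription factor Nfia by -2.79 and the peptide hormone spexin (Spx) by -2.75. Further members were the vitamin A transporter Stra6 (-2.64), the calcium channel gene Cacna1c (-2.52), the neural membrane protein Gpm6b (-2.21), the early response gene Ier3 (-2.22) and the semaphorin Sema3e (-2.09). Gpm6b was bright in Tconv at 2055 and 1787, while Spx, Cacna1c and Stra6 read at most 19.9 on either Treg array. Some lower genes were also dim in Tconv given the Foxp3 vector, such as Spx (8.77 and 5.22) and Stra6 (18.7 and 18.0). Others were not, such as Gpm6b (2005 and 1850). Dgkk, the X-linked gene described with the Foxp3 neighbours, was the lower gene whose call held whichever array was left out. Mmp7 lost its call only without the second Treg array. For the genes of these last 2 paragraphs apart from Dgkk, calls were lost without the second Treg array, and for Nfia, Lif, Prxl2a, Sema3e, Cacna1c and Ier3 also without any other 1 of the 4 arrays compared. The adjusted p of these 6 genes reached at most 0.31, 0.098, 0.12, 0.19, 0.22 and 0.28. Those of Grp, Slc17a6 and Pparg reached at most 0.075, 0.16 and 0.18.

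Cytokine genes mostly had negative differences and were uneven between the Tconv arrays. Of 31 cytokine and growth factor genes tested, 1 was called lower (Lif, against 0.203% of all genes) and 0 were called higher. Negative differences were found for 21 (35.2% of all genes), with a median of -0.71 against 0.19 for all genes. That median ranged from -0.45 without the first Treg array to -1.13 without the second. The Th2 cytokines were the most extreme. Il13 read 10.4 and 98.8 in Treg and 230 and 5773 in Tconv, Il5 read 2.97 and 5.41 in Treg and 48.2 and 1871 in Tconv, and neither was called (adjusted p = 0.14 and 0.25). Il24 read 17.1 and 143 in Treg and 850 and 4039 in Tconv, a difference of -4.69 (adjusted p = 0.060, and 0.045 after quantile normalization). In all of these the second Tconv array was far above the first. Of the 16 Th2 genes tested 12 had negative differences, with a median of -1.15 (-0.68 without the second Tconv array). Among them 1 was called (Pparg, lower), against 0.203% of all genes called lower. Il10, an inhibitory cytokine, was also not higher in Treg, with 902 and 774 against 2173 and 1835 (difference -1.24, 95% interval -2.68 to 0.193). Il2, which Foxp3 represses, varied more within the groups than between them, with 18.4 and 77.9 in Treg and 11.3 and 101 in Tconv, and its difference was 0.00 (95% interval -1.95 to 1.95).

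**Figure D4:**
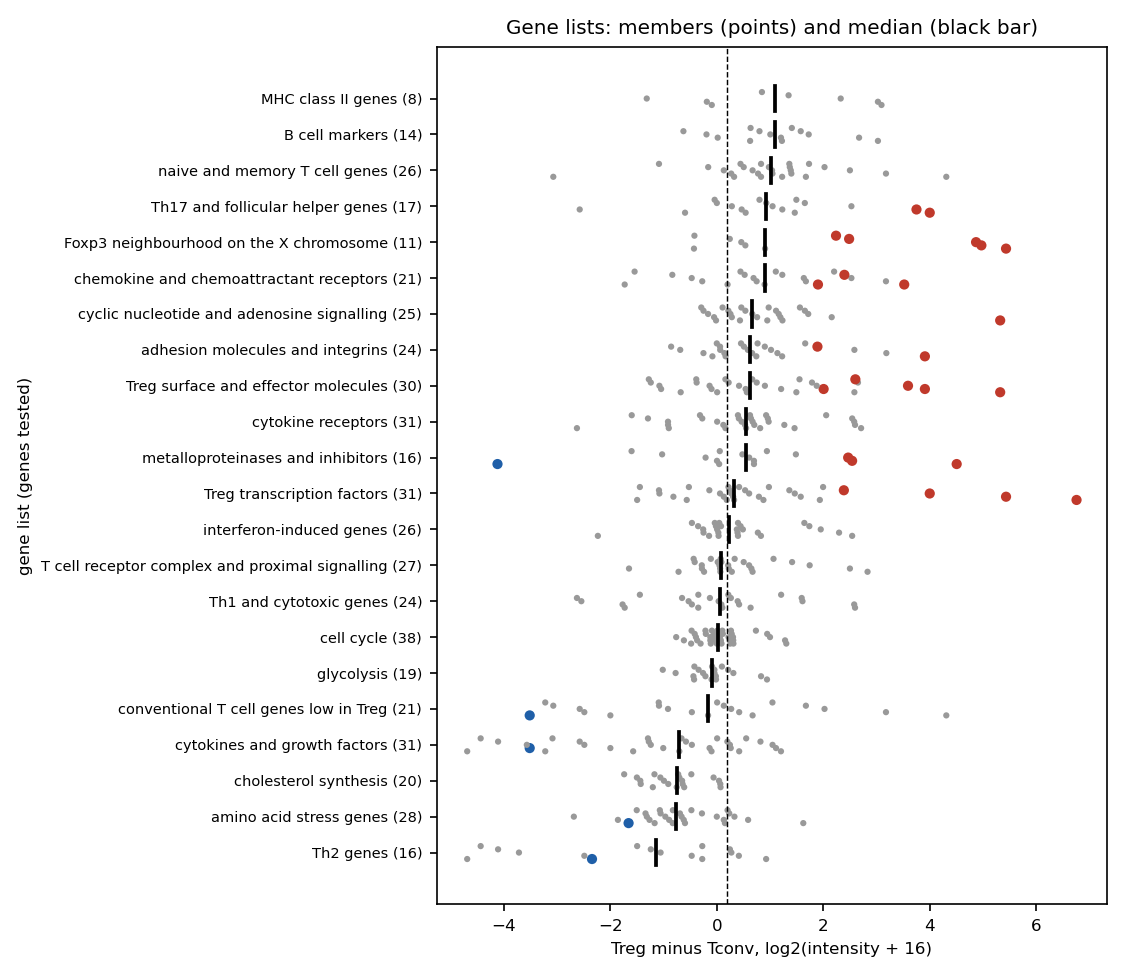
Median difference between Treg and Tconv (log2) as a black bar for most of the gene lists, with the individual genes as points, red where called higher, blue where called lower and grey otherwise. The dashed line is the median over all genes tested, 0.19, with naive and memory T cell genes to its right (1.01), while Th2 genes (-1.15), amino acid stress genes (-0.76) and cholesterol synthesis genes (-0.74) lie to its left.

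Receptors for cytokines showed no call among 31 tested genes, where limma gave 13 with an unadjusted p under 0.05 (15.4% of all genes had one). Il18r1 read 284 and 574 in Treg and 79.5 and 34.9 in Tconv, a difference of 2.59 (adjusted p = 0.052). Il6st, the shared signal chain for IL-6 and LIF, differed by 2.54 (adjusted p = 0.053), and Ifngr1 by 2.71 (adjusted p = 0.071). Il12rb2, the chain that makes Th1 cells respond to IL-12, lay in the opposite direction, at 60.7 and 270 in Treg against 863 and 938 in Tconv (difference -2.63, adjusted p = 0.060, and 0.033 after quantile normalization). These genes were named for their small p, and their groups did not overlap, as for 51.5% of all genes.

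Genes of naive and memory T cells had a median of 1.01, with 23 of 26 differences positive (64.8% of all genes) and none called, although 13 had an unadjusted p under 0.05 in limma, against 15.4% of all genes. Without the second Treg array the median was 0.65. Igfbp4, which naive T cells express, read 1716 and 3047 in Treg and 19.6 and 364 in Tconv, a difference of 4.31 (adjusted p = 0.12). Klf2, the factor that maintains S1pr1 and the homing receptors of quiescent cells, differed by 2.02 (adjusted p = 0.21) and Ccr7, the lymph node homing receptor, by 1.67 (adjusted p = 0.37). Dapl1, another gene of naive T cells, differed by -3.07 (adjusted p = 0.061), with 28.3 and 38.4 in Treg and 751 and 206 in Tconv. Th17 and follicular helper genes had a median of 0.93 over 17 tested (0.30 without the second Treg array and 1.55 without the first). Among them 2 were called higher (Rora and Tox, against 0.884% of all genes) and 0 lower.

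Genes of cyclic nucleotide and adenosine signalling, to which Nt5e belongs, had a median of 0.66 over 25 tested, or 0.30 without the second Treg array. Nt5e was the 1 call (0.884% of all genes were called higher). Both subunits of soluble guanylate cyclase had positive differences, 2.16 for Gucy1a1 (adjusted p = 0.13) and 1.65 for Gucy1b1 (adjusted p = 0.088). Pde3b, the cyclic AMP phosphodiesterase that Foxp3 represses in resting Treg, read 136 and 439 in Treg and 132 and 572 in Tconv, a difference of -0.17 (95% interval -2.17 to 1.84). The spread within each group was larger than this difference.

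Biosynthetic genes mostly had negative differences, with few calls. Of 20 cholesterol synthesis genes tested 17 had negative differences and none was called, where limma gave 7 with an unadjusted p under 0.05, against 15.4% of all genes, and 35.2% of all differences were negative. Their median was -0.74, and the groups did not overlap for 16 genes lower in Treg (16.3% of all genes tested did so). Fdps, farnesyl diphosphate synthase, read 282 and 519 in Treg and 1355 and 1283 in Tconv, a difference of -1.74 (adjusted p = 0.15). Pmvk, phosphomevalonate kinase, differed by -1.44 (adjusted p = 0.088). Of 28 amino acid stress genes, targets of the ATF4 programme, 21 had negative differences, with a median of -0.76. There was 1 call (0.203% of all genes were called lower), the neutral amino acid transporter Slc1a4 at -1.66 (adjusted p = 0.042). That call was lost without any of the 4 arrays compared, with adjusted p of at most 0.31. Asns, asparagine synthetase, read 449 and 298 in Treg and 1117 and 1677 in Tconv (difference -1.86, adjusted p = 0.068), and Phgdh, the entry enzyme of serine synthesis, differed by -1.34 (adjusted p = 0.073).

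Proliferation and T cell receptor genes were close to level. The 38 cell cycle genes tested had a median of 0.02 and none was called, where limma gave 4 with an unadjusted p under 0.05, a smaller share than the 15.4% of all genes. Mki67, a marker of cycling cells, read 2811 and 3471 in Treg and 3859 and 3414 in Tconv. Glycolysis genes had a median of -0.09 over 19 tested and genes of the T cell receptor complex and proximal signalling 0.08 over 27, with none called in either. Interferon-induced genes had a median of 0.23 (-0.23 without the second Treg array), with none of 26 called.

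B cell markers and class II genes had positive medians, both 1.10, over 14 and 8 tested genes, with none called. Cd74 read 91.9 and 1711 in Treg and 51.4 and 25.8 in Tconv. Without the second Treg array the B cell median was -0.09 and the class II median 0.13, and without the first the class II median was 2.05. Summed over 16 B cell genes, intensities were 647 and 4274 in Treg and 694 and 478 in Tconv. Where the second Treg array stood above the first in the genes described here, as for S1pr1 and the naive T cell genes, the part of these B cell signals in the result was not tested.

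Whether the chosen probe set stands for its gene was examined in the 70 called genes with several probe sets above the filter. In 68 of them all probe sets had the same sign, and in 37 at least 2 were called when each was fitted on its own. Nt5e and Prxl2a were the exceptions in sign, with the values given above. Probe sets of the same sign could still differ in size, as for Ccdc22 (2.48 and 0.66).

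GFP+ and GFP- starting cells were also compared on arrays that the comparison had not used. Scurfy GFP+ cells labelled as carrying the Foxp3 vector were set against Tconv labelled as carrying it, a comparison that shares no array with Treg against Tconv but differs in the mutation and in the vector. The Foxp3 probe set read 18.0 and 18.9 on the Foxp3-labelled Tconv arrays, below the 53.9 and 35.9 with empty vector, so it does not bear out those labels. Whether it can detect the transcript of the vector was not tested. On the Foxp3-labelled scurfy arrays it read 948 and 691, also below the 1188 and 1114 of scurfy cells with empty vector. Of the 100 genes called higher in Treg, 77 were positive in that second comparison, against 44.8% of all genes, and 27 were also called higher there, against 1.63% of all genes. Of the 23 genes called lower, 13 were negative (56.5%, against 55.2% of all genes) and 3 were called lower (13.0%, against 0.610%). Called in the opposite direction were 2 of the higher genes, Ipcef1 (-3.22) and Qser1 (-1.47), and 2 of the lower genes, Pparg (2.64) and Ier3 (2.56).

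The 27 genes higher in both comparisons included Ikzf2 (6.22 in the second comparison), Foxp3 (4.58), Adam19 (4.26), Syp (3.81), Rora (3.54), Gpr15 (3.33), S100a4 (3.28), Cpe (3.14), Klrg1 (2.93), Ikzf4 (2.64), Ppp1r3f (2.46), Flicr (2.33), Cxcr4 (2.05) and Nt5e (1.94). Dgkk (-3.65), Fam71b (-3.09) and Lipg (-1.59) were the 3 lower in both. B cell sums on these arrays were higher than in Treg or Tconv, 4693 and 11160 on the scurfy arrays and 2310 and 2694 on the Tconv arrays over the 16 B cell genes, and their part in this comparison was not tested.

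The difference of the 2 effects was called for 35 of all genes (0.309%), among them 11 of the 100 higher genes and 6 of the 23 lower genes. Ikzf2 and Foxp3 were not among them, with differences of effects of 0.54 (adjusted p = 0.61) and 0.85 (adjusted p = 0.43). Cpe differed by 6.56 log2 units between Treg and Tconv but by 3.14 between the Foxp3-labelled scurfy and Tconv arrays, and Nt5e by 5.32 against 1.94. For both the difference of effects was called (adjusted p = 0.031). Intensities on the scurfy arrays with empty vector were 22 and 26.4 for Nt5e, 55.02 and 74.9 for Cpe, and 3061 and 2303 for Ikzf2. That group differed from Tconv with empty vector by 4.28 for Foxp3 and 3.65 for Flicr, values that share the Tconv arrays with the comparison above.

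**Figure D5:**
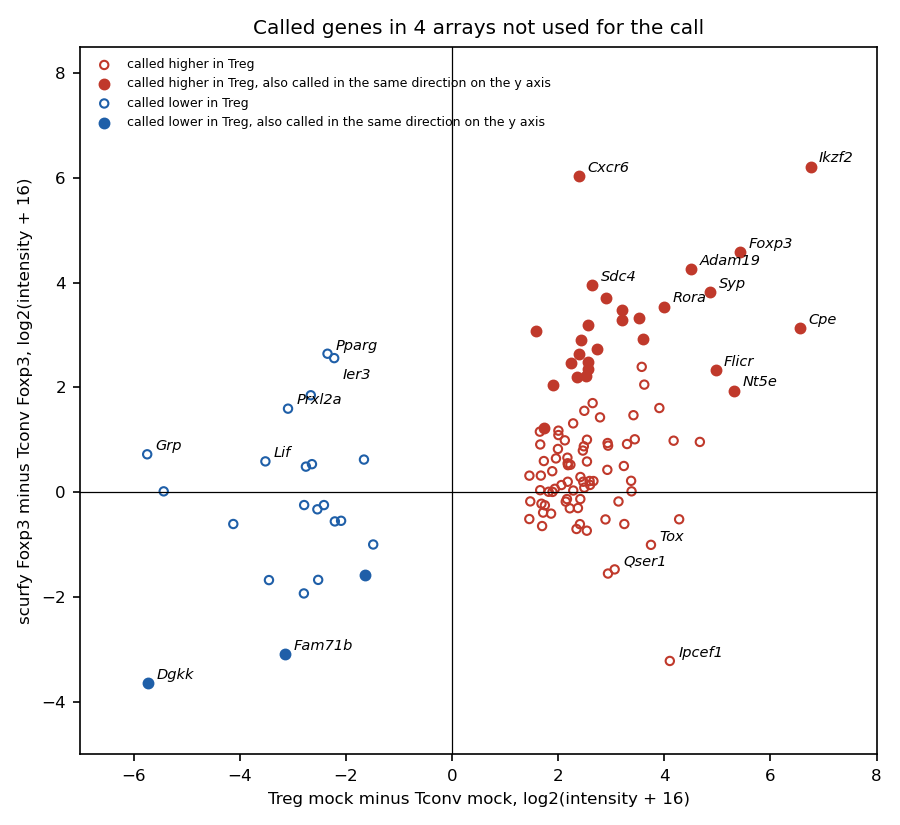
Difference between Foxp3-labelled scurfy GFP+ cells and Foxp3-labelled Tconv against the difference between Treg and Tconv (both log2), for the 123 called genes. Ikzf2, Foxp3 and Adam19 lie at similar heights on both axes, while Cpe and Nt5e are lower on the vertical axis and Ipcef1, Tox, Grp and Pparg lie away from the diagonal.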

How the data were processed

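Biotin-labelled cDNA from total RNA was hybridised to 10 Affymetrix Mouse Genome 430 2.0 arrays. The authors processed them with Affymetrix Expression Console, per the submitters' processing notes. The deposited values are linear intensities per probe set. The sources used here do not give the summary method or the scaling, and array medians differed. Precision is limited by the number of arrays.

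Of 45101 probe sets, 64 were controls, 34945 had 1 gene symbol, 932 several and 9160 none. The brightest probe set, by its mean across all 10 arrays, stood for a gene. Genes were tested if they exceeded the median of the array on 2 or more arrays. Intensities were taken as log2 after adding 16, without normalization. limma 3.58.1 in R 4.3.3 (lmFit, eBayes) was fitted over all 10 arrays, which gave 5 residual and 4.09 prior degrees of freedom, with two-sided p-values adjusted by Benjamini-Hochberg over all genes. Intervals are at 95%.

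Members and lists were chosen with earlier results of these data known. Genes always named were Foxp3, Ikzf2, Nt5e, Cpe, Ikzf4, Il2ra, Ctla4, Tnfrsf18, Il2, Il7r and Pde3b. Further names were the 30 largest increases and 23 largest decreases among called genes without overlap, leaving out clone names, and the called and up to 4 uncalled members of each list. Other names were chosen after their values were seen.

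Promoters are RefSeq's, matched by symbol. On simulated data 3 of 67 genes changed by 1 log2 unit were called, 34 of 67 changed by 2 and 57 of 66 changed by 3, with 3 false among 97 calls. The simulation drew independent normal values, with the spread of a gene equal in all groups and no array effects. The real replicates differed in spread between groups, so these rates may not carry over. Alternatives were other scalings, pseudocounts of 1 and 64, filters, probe set rules, eBayes options, array weights, the compared groups alone, replicate blocks and each array left out.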

Additional observations from a re-analysis of the deposited data

Results flagged for a closer look

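For 15 named genes the Treg minus Tconv difference was unlike the scurfy minus Tconv difference among Foxp3-labelled arrays. The measure was limma's test of the difference of the effects (adjusted p under 0.05). No array was shared between the group means, while the spread came from all arrays. The first effect exceeded the second by 7.325 log2 units for Ipcef1, 4.753 for Tox, 4.539 for Qser1, 4.491 for Frat2 and 3.415 for Cpe. The excess was 3.381 for Nt5e, 3.366 for Ltf, 3.274 for Adamts6 and 2.632 for Flicr. It was negative for Grp (-6.467), Pparg (-4.99), Ier3 (-4.78), Prxl2a (-4.685), Cxcr6 (-3.641) and Spx (-3.241). Cxcr6 was higher in both comparisons, by 2.39 in Treg against Tconv and by 6.03 in scurfy cells against Tconv among Foxp3-labelled arrays. In the second comparison Ipcef1 (-3.22) and Qser1 (-1.47) were called lower, and Pparg (2.64) and Ier3 (2.56) higher, against their direction in the first. Grp read 2.59 and 11.6 on the Foxp3-labelled Tconv arrays, against 551 and 1435 on the Tconv arrays with empty vector, and Pparg 16.6 and 13.0 against 320 and 623.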

How the results depend on the processing

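No called gene that is named changed sign in any alternative. Leaving out an array or changing the pseudocount could not reverse a given probe set, since the groups of these genes did not overlap. Over 1430 combinations of these 63 genes and settings, 1092 kept the call and 338 lost it, and 10 of the 63 kept it whichever array was left out. The counts moved more. Against 123 calls (100 higher, 23 lower; 27 higher and 3 lower also called on the second set of arrays), quantile normalization gave 75 lower, 7 of them lower in both, and a median of -0.052 over all genes. Scaling to a common 75th percentile gave 199 calls, 80 lower, 7 lower in both and a median of -0.11. A pseudocount of 1 gave 56 calls (52 higher, 4 lower; 16 and 0 in both), and no filter 57 (45 and 12; 15 and 1 in both). Each probe set on its own gave 281 calls (241 and 40; 41 higher in both), trend and robust options 194 (152 and 42; 6 lower in both), and array weights 219 (183 and 36). The compared groups alone gave 76 (55 higher), and could give no value for the second set. With a replicate block there were 81 calls (60 higher). Same-numbered Treg and Tconv arrays deviated with r = -0.117, so the numbers were not taken as pairs. A crossed block, chosen after seeing the data, gave 184 calls (38 lower, 8 lower in both). Leaving out 1 array gave 17 to 217 calls (12 to 175 higher, 3 to 42 lower), 3 to 42 higher and 0 to 4 lower in both, and medians of 0.02 to 0.36. With 1 array left, its spread was assumed to equal that of the other groups. Signal near background limits the 38 higher genes that were dim in Tconv.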

Other observations

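Some genes differed strongly between the Treg arrays, and those given here were chosen after their values were seen. Ccl22, a chemokine that attracts Treg, read 1.57 on the first and 1886 on the second Treg array, against 2.73 and 71.7 in Tconv. H2-Eb1 read 14.01 and 666, and Jchain 1.02 and 233. Some genes were higher on the first array instead, such as Ccl3 at 1919 against 123 and Lair1 at 458 against 22.3. Gzma, a granule protease, read 25.7 and 771 in Treg and 921 and 1179 in Tconv, and Epas1, a hypoxia-inducible factor, 18.2 and 574 in Treg and 1467 and 2341 in Tconv.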
